A study of Mus musculus with 12 samples.

Results

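Transcripts of 9 genes for secreted chemokines and chemokine receptors were followed in CD8+ T cells that were naive, had met antigen, or had met antigen with costimulation. The rule that defines the set is a list of gene symbols, drawn up with earlier results of these data known: the ligands Ccl3, Ccl4, Ccl5 and Xcl1, and the receptors Cxcr3, Cxcr4, Cxcr6, Ccr2 and Cx3cr1. All 9 were among the 55536 annotated genes of the count table, and all 9 passed the filter on low counts together with 18817 genes in all. The 12 libraries were poly(A) RNA-seq of OT-I CD8+ T cells, sorted from spleen and lymph nodes; their transgenic receptor recognises the ovalbumin peptide SIINFEKL, and the mice were C57BL/6J. The study bred its OT-I donors on a Rag1-/- or Rag2-/- background, so that the transgenic receptor is the only one the donor T cells carry, and used mice of both sexes.

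The Naive group (n = 2) was OT-I cells taken from donor mice without transfer. For the Ag group (n = 5), OT-I cells were moved into wild-type C57BL/6J recipients, which then received the peptide with a control rat IgG. For the Ag+Costim group (n = 5), recipients received the peptide with agonist antibodies to CD134 (OX40) and CD137 (41BB), costimulatory receptors of the TNF receptor family. Day 4 is the time of collection in the labels, and the methods of the study give a slightly earlier harvest. The Naive cells therefore differed from both other groups by transfer and host as well as by antigen. In the methods, the transferred cells of both antigen groups were sorted as live CD8+ cells carrying CD45.1 and the transgenic receptor chains Vα2 and Vβ5, and the Naive cells are described only as purified CD8+ T cells. The study describes its libraries as individual biological replicates, which the labels do not state.

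Chemokines are small secreted proteins that guide cells by gradients, and their receptors are G protein-coupled receptors on the cells that follow. Ccl3, Ccl4 and Ccl5 are inflammatory chemokines, and Xcl1 is the ligand of Xcr1 on cross-presenting dendritic cells. Activated CD8+ T cells are known to exchange receptors of lymphoid tissue, such as Ccr7, for receptors that respond to inflamed tissue, such as Cxcr3.

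Summed counts were 24006053 to 49294934 per library, the lowest being Ag library 4. Genes of T cells (Cd3d, Cd3e, Cd3g, Cd8a, Cd8b1, Lck, Trac) were high in every library, with a summed level of 9410 to 13500 CPM (counts scaled to a common library size) in Ag, 5450 to 7480 in Ag+Costim and 10900 to 11500 in Naive, and Cd4 did not exceed 2.44 CPM in any library. Summed levels of 6 NK cell markers were 27.3 to 66.5 CPM in Ag, 11.5 to 32.4 in Ag+Costim and 26.1 to 31.8 in Naive. For 5 B cell markers they were 108 to 155, 22.5 to 57.7 and 27.2 to 29.7, and for 10 myeloid markers 72.6 to 196, 90.9 to 165 and 32.1 to 113 in the same order. For 5 erythroid genes they were 625 to 6370, 14.5 to 222 and 150 to 2070. Y-linked transcripts exceeded Xist in 2 Ag, 2 Ag+Costim and 1 Naive library (Ag 1 and 2, Ag+Costim 1 and 2, Naive 1), and Xist exceeded them in the other seven. Within Ag+Costim, libraries 4 and 5 stood apart from the rest in Ccl5, Cx3cr1 and Xcl1.

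The 5 promoters below are those of genes with the patterns described next: Ccl3 and Xcl1, high in Ag; Cxcr4 and Ccr2, low in Ag; and Cxcr3, high in Ag and in Ag+Costim. Each is 250 bases before to 50 bases after the transcription start given by RefSeq in GRCm38.p6, written 5′ to 3′ on the strand of the gene. Capitals mark matches to short sequences that transcription factors of activated T cells are known to bind, and to the TATA box.
Ccl3, chr11:83649329-83649628 (minus strand): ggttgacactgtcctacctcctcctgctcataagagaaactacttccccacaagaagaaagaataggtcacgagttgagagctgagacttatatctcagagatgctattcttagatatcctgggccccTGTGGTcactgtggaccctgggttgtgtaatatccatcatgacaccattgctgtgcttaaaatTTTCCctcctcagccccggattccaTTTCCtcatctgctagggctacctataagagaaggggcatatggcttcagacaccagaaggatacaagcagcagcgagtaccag
Xcl1, chr1:164935473-164935772 (minus strand): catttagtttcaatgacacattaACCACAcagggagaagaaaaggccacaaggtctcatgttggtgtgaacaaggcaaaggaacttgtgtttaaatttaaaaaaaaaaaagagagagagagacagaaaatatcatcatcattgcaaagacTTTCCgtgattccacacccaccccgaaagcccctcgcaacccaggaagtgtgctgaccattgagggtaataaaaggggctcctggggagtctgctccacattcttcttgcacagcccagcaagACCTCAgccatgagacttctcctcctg
Cxcr3, chrX:101734098-101734397 (minus strand): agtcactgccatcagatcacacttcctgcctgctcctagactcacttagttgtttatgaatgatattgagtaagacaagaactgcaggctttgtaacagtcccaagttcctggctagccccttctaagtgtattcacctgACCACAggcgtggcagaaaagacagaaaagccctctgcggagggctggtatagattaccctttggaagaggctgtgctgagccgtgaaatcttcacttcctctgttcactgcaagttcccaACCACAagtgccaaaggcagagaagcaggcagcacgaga
Cxcr4, chr1:128592250-128592549 (minus strand): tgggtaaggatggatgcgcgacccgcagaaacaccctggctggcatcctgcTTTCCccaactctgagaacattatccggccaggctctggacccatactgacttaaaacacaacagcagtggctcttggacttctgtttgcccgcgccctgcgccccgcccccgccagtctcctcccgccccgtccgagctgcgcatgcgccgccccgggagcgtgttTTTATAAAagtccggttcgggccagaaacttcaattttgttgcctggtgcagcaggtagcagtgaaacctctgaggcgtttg
Ccr2, chr9:124101933-124102232 (plus strand): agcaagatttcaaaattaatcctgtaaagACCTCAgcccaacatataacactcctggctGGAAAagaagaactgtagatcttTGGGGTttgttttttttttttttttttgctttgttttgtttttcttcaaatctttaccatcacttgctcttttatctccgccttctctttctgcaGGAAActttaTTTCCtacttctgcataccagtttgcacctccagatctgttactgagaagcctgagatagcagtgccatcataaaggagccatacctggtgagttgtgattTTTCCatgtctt
RefSeq promoters were matched for 7 of the 9 genes, these 5 and Cxcr6 and Cx3cr1. The letters searched, on both strands, were GGAAA (the core of NFAT sites), TGNGGT (the core of RUNX sites), TATAAA (the TATA box), TGANTCA (AP-1), TGACGTCA (CRE) and AGGTGTNA (T-box factors). The NFAT core was in 6 of the 7 promoters, Cxcr3 being the exception, and in 61.3% of 27025 RefSeq promoters of this length. The RUNX core was in 6 of the 7, Cxcr4 being the exception, and in 45.6% of all. Cxcr4 alone held the TATA letters, 30 bases before its start, where the matches of both strands overlap, while 14.2% of all promoters held them. AP-1, CRE and T-box letters were in none of the 7 windows and in 7.93%, 1.88% and 3.03% of all promoters. Ccr2 had 4 matches to the NFAT core, the most of the 7 genes.

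Against Naive cells, antigen alone went with much more transcript of the ligands Ccl3, Ccl4 and Xcl1 and of the receptor Cxcr3, and with less of Cxcr4, Ccr2 and Cx3cr1. This comparison takes antigen without added costimulation together with transfer and host, and their parts cannot be told apart. With edgeR's quasi-likelihood test at a Benjamini-Hochberg adjusted p below 0.05, 4 members were higher and 3 lower in Ag than in Naive, while 24.2% of all 18817 genes were called higher and 22.5% lower. Over every gene tested, the log2 values of this comparison had a median of 0.02. In bulk samples, fewer cells that carry a transcript and less of it per cell cannot be told apart.

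With costimulation, those genes except Cxcr3 changed in the direction opposite to that from Naive to Ag. How many of all genes did so was not counted. Against Ag, Ag+Costim had less Ccl3, Ccl4 and Xcl1 and more Cxcr4, Ccr2 and Cx3cr1. The Cx3cr1 difference was smaller and did not pass the test when Ag+Costim 4 and 5 were left out, which leaves fewer libraries. In this comparison 3 members were called higher and 3 lower, beside 26.6% of all genes called higher and 26.5% lower. Without Ag+Costim 4 and 5, a setting chosen after the data were seen, the members called were 2 higher (Cxcr4, Ccr2) and 4 lower (Ccl3, Ccl4, Xcl1, Ccl5). Beside them 4801 of 18620 genes were called higher and 4471 lower. Without Ag 4 the members called were 3 higher and 4 lower, Cxcr6 being added, beside 5156 higher and 5034 lower of 18642 genes. The CPM of the 5 Ag and 5 Ag+Costim libraries did not overlap for 5 members, and for 39.8% of all genes. Against Naive, Ag+Costim had 5 members higher (Ccl3, Ccl4, Xcl1, Cxcr3, Ccr2) and 0 lower by edgeR, beside 26.9% and 25.4% of all genes. By DESeq2, which called 5398 of 18817 genes higher and 4809 lower, 5 members were higher and 1, Cxcr4, was lower. Cxcr4 was also the 1 member below Naive with an unadjusted edgeR p under 0.05. The 3 comparisons share libraries in pairs, so a high Ag level enters both the rise from Naive and the fall to Ag+Costim.

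**Figure D1:**
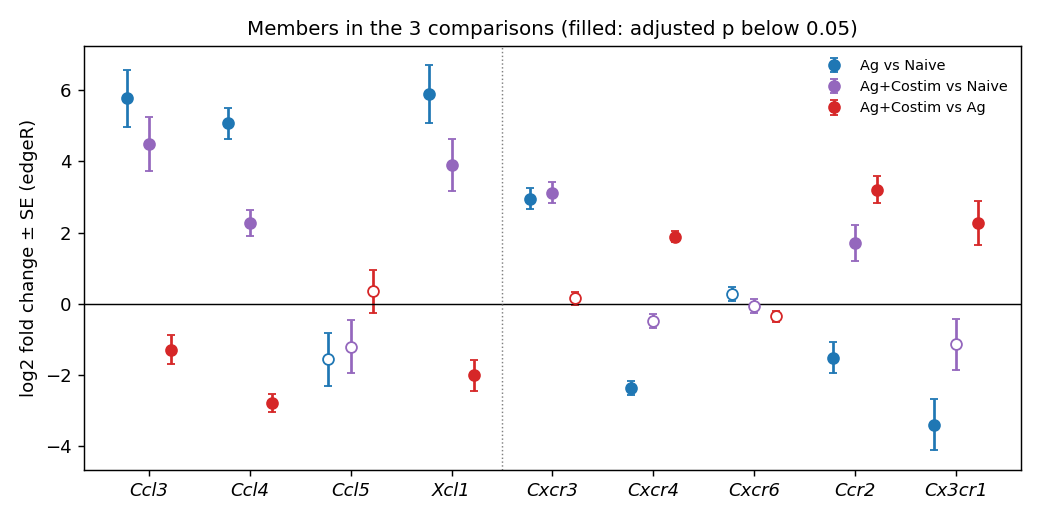
Log2 fold change of each member by edgeR (vertical axis, with its standard error) in the 3 comparisons, with ligands left and receptors right of the dotted line and filled points for an adjusted p below 0.05. Ccl3, Ccl4 and Xcl1 lie above 0 against Naive and below 0 for Ag+Costim against Ag, while Cxcr4, Ccr2 and Cx3cr1 lie the other way for Ag against Naive and Ag+Costim against Ag.

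Ccl3 and Ccl4 are neighbouring genes on chromosome 11 (GRCm38, chr11:83647844-83649355 on the minus strand and chr11:83662584-83664683 on the plus strand) and encode inflammatory chemokines made by activated T cells. Ccl3 had 26 counts in Naive library 1 and 0 in Naive library 2, which allows up to 0.063 CPM there (3 counts, for counting error only). In Ag libraries 1 to 5 its level was 15.8, 15.1, 13.2, 9.26 and 20.9 CPM, and in Ag+Costim libraries 1 to 5 it was 7.52, 5.92, 4.95, 8.03 and 3.89 CPM. The lowest Ag library was above the highest Ag+Costim library, by a narrow margin. Ccl3 rose by 5.77 ± 0.79 (log2, SE) in Ag against Naive (edgeR, adjusted p = 5.8e-05) and was 4.48 ± 0.75 above Naive in Ag+Costim (adjusted p = 0.00024). Because a Naive library is at 0, these fitted values depend on the other, and leaving out Naive 1 gave 12.29 and 10.99. Between the antigen groups Ccl3 fell by 1.29 on the log2 scale (SE 0.41, adjusted p = 0.017).

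Ccl4 had the largest relative fall of the 9 genes with costimulation. Its level was 60.4, 56.2, 61.5, 34.8 and 68.4 CPM in Ag, 11.9, 8.36, 6.62, 9.4 and 4.41 CPM in Ag+Costim, and 1.44 and 1.91 CPM in Naive. No library of one group reached the range of another. Ccl4 fell by 2.79 on the log2 scale from Ag to Ag+Costim (SE 0.25, edgeR adjusted p = 7.9e-07), from a level that was 5.07 ± 0.43 above Naive (adjusted p = 1.0e-06). In Ag+Costim it stayed 2.28 ± 0.37 above Naive (adjusted p = 0.00019).

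Xcl1 lies on chromosome 1 (chr1:164931644-164935527, minus strand), and its exons overlap those of the antisense gene Gm20743. Whether the counting used strand is not given in the sources used here, so reads of the pair may have been mixed. Its level was 202, 132, 170, 115 and 144 CPM in Ag, 73.5, 57.8, 32.2, 15.1 and 12.2 CPM in Ag+Costim, and 2.98 and 2.14 CPM in Naive. The groups did not overlap, and the Ag+Costim libraries spread from 12.2 to 73.5 CPM, the 2 highest being those with Y-linked transcripts. Xcl1 rose by 5.89 ± 0.81 (log2, SE) from Naive to Ag (edgeR, adjusted p = 8.6e-05), fell by 2.0 from Ag to Ag+Costim (SE 0.44, adjusted p = 0.0020), and was 3.89 ± 0.73 above Naive in Ag+Costim (adjusted p = 0.00076). The log2 ratio of mean CPM, Ag+Costim over Ag, was -1.35 in the libraries with Y-linked transcripts (2 against 2) and -2.85 in those with Xist (3 against 3), and the difference between these was not tested. Without Ag+Costim 4 and 5 the fall was 1.47 on the log2 scale and Xcl1 had an edgeR adjusted p of 0.0006.

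NK cells also make Ccl3, Ccl4 and Xcl1, although the sort described above was meant to leave them out of the antigen groups. The NK marker sum of 4 of the 5 Ag+Costim libraries was below that of every Ag library, and its part in the fall of these ligands was not tested. The Naive libraries had an NK marker sum inside the range of Ag+Costim, with Xcl1 at 2.14 and 2.98 CPM. Whether any NK cells in the groups differed in Xcl1 was not tested.

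Ccl5 (chr11:83525778-83530518, minus strand) encodes a chemokine that memory and effector CD8+ T cells store. The Naive libraries were at 134 and 114 CPM, the Ag libraries at 29.6, 19.4, 52.4, 60.8 and 49.4 CPM, and the Ag+Costim libraries at 16.4, 15.1, 28.7, 137 and 72.1 CPM. All Ag libraries were below both Naive libraries, while Ag+Costim 4 was above them and Ag+Costim 1 and 2 were below all Ag libraries. No comparison passed the edgeR test: Ccl5 was at -1.55 ± 0.75 (log2, SE) in Ag against Naive (adjusted p = 0.11) and at 0.35 ± 0.60 in Ag+Costim against Ag (adjusted p = 0.65). Against Naive the Ag+Costim value was -1.20 ± 0.75 (adjusted p = 0.20). Without Ag+Costim 4 and 5 the value against Ag was -1.06 (adjusted p = 0.023), the opposite sign, and those against Naive became -1.56 for Ag (adjusted p = 0.0037) and -2.62 for Ag+Costim (adjusted p = 0.00027). Libraries 4 and 5 were the highest of their group in Ccl5 and were left out after the data were seen. A lower Ag+Costim value was therefore bound to follow, and these adjusted p are a description only. In both antigen groups the libraries with Y-linked transcripts had the lowest Ccl5, 19.4 and 29.6 CPM in Ag and 15.1 and 16.4 CPM in Ag+Costim, while in Naive the library with Y-linked transcripts had the higher value. With a term for Y-linked transcripts in the edgeR fit, Ccl5 was lower in Ag than in Naive, at -2.14 (adjusted p = 0.0098), and lower in Ag+Costim than in Naive, at -2.06 (adjusted p = 0.015).

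**Figure D2:**
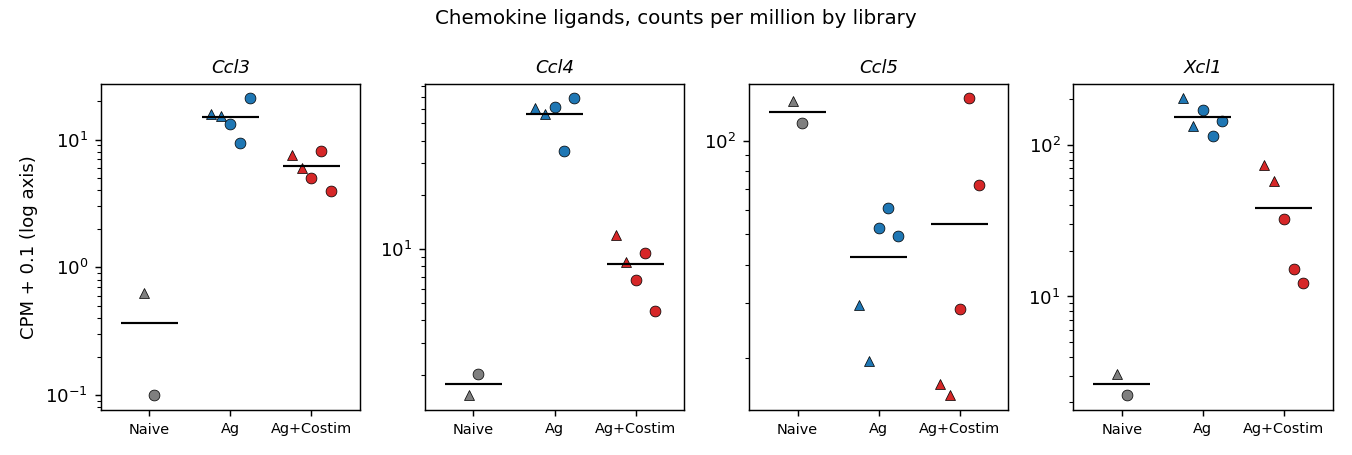
Level of the ligand genes in every library (CPM with 0.1 added, log axis, bars at group means), with triangles for libraries in which Y-linked transcripts exceeded Xist. Ccl3, Ccl4 and Xcl1 are separated in all 3 groups, whereas the Ag+Costim libraries of Ccl5 range from 15.1 to 137 CPM.

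Ratios of ligand counts within a library do not depend on how libraries are scaled. The log2 ratio of Ccl4 to Ccl3 counts (0.5 added to each) was 1.71 to 2.22 in Ag and 0.18 to 0.66 in Ag+Costim, with no overlap. Ag libraries averaged 1.94 ± 0.18 and Ag+Costim libraries 0.40 ± 0.20 (SD, n = 5 each), a difference of -1.54 (exact permutation test, two-sided p = 0.0079, the smallest it can give, adjusted p = 0.048 over 6 ligand pairs). So Ccl4 fell more than Ccl3. The ratio was 1.41 in Naive 1, and it is not given for Naive 2, where Ccl3 is at 0.

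The ratio of Ccl5 to Ccl4 was higher with costimulation, by a smaller difference when Ag+Costim 4 and 5 were left out. In Ag the log2 ratio of Ccl5 to Ccl4 averaged -0.49 ± 0.88 (SD, n = 5) and ranged from -1.53 to 0.81. It averaged 2.26 ± 1.65 (SD, n = 5) with costimulation, ranging from 0.47 to 4.03, and stood at 6.53 and 5.89 in the Naive libraries. The difference between the antigen groups was 2.76 (exact permutation test, two-sided p = 0.016, adjusted p = 0.048), and the ranges overlapped. Without Ag+Costim 4 and 5 the difference was 1.63 (exact permutation test, adjusted p = 0.14). So few arrangements remain then that the Ccl4 to Ccl3 ratio, which did not overlap, had an adjusted p of 0.107. Missing the threshold there does not tell if the test result rests on libraries 4 and 5. The other four pairs had adjusted p of 0.15 to 0.23 in the same exact test. Xcl1 to Ccl4 differed by 0.52 (adjusted p = 0.23), with ranges of 1.07 to 1.74 in Ag and 0.69 to 2.79 in Ag+Costim. Xcl1 to Ccl5 ran from 0.92 to 2.77 in Ag and from -3.18 to 2.16 in Ag+Costim, where libraries 4 and 5 had more Ccl5 than Xcl1 counts.

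**Figure D3:**
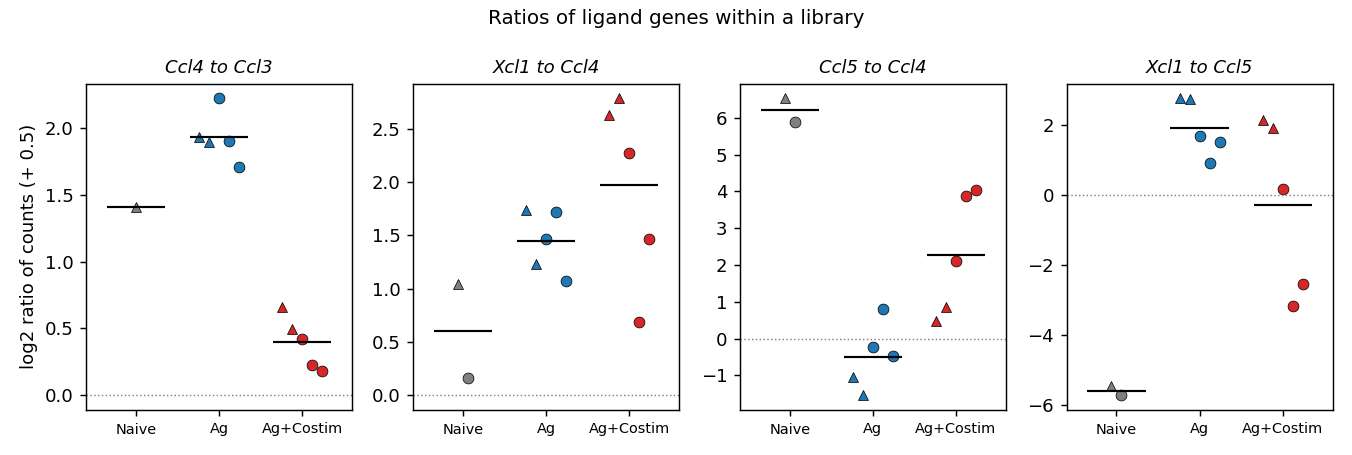
Log2 ratio of counts (0.5 added) for 4 ligand pairs in every library, bars at group means, triangles for libraries in which Y-linked transcripts exceeded Xist, and Naive 2 left out where Ccl3 is 0. The Ccl4 to Ccl3 ratio lies between 1.71 and 2.22 in Ag and between 0.18 and 0.66 in Ag+Costim.

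Among the receptors, Cxcr3 (chrX:101731535-101734269, minus strand) binds the interferon-induced chemokines Cxcl9 and Cxcl10 and was high in both antigen groups. Its level was 73.0 and 40.7 CPM in Naive, 355, 350, 512, 459 and 527 CPM in Ag, and 397, 400, 482, 633 and 556 CPM in Ag+Costim. Every antigen-group library was above both Naive libraries, and the antigen groups overlapped. Cxcr3 rose by 2.96 ± 0.29 (log2, SE) in Ag (edgeR, adjusted p = 3.7e-06) and by 3.12 ± 0.30 in Ag+Costim (adjusted p = 1.7e-06) against Naive. The value between the antigen groups was 0.16 ± 0.18 (adjusted p = 0.48), and it was -0.03 with upper-quartile scaling. As with Ccl5, the lowest values of each antigen group were in the libraries with Y-linked transcripts.

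Cxcr4 (chr1:128588199-128592293, minus strand), the receptor for Cxcl12, which holds cells in bone marrow and lymphoid tissue, was low in Ag and higher in both other groups. Its level was 20.8 and 26.4 CPM in Naive, 5.55, 4.18, 3.70, 5.42 and 4.11 CPM in Ag, and 18.7, 19.4, 15.4, 13.4 and 17.7 CPM in Ag+Costim. The groups were fully separated, with Ag+Costim close below Naive. Cxcr4 fell by 2.36 on the log2 scale from Naive to Ag (SE 0.19, edgeR adjusted p = 6.1e-07) and was 1.88 ± 0.16 higher in Ag+Costim than in Ag (adjusted p = 4.4e-07). Against Naive, Ag+Costim was at -0.48 ± 0.19 (adjusted p = 0.052), a value that DESeq2 called lower (adjusted p = 0.037).

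Ccr2 (chr9:124101950-124113557, plus strand), the receptor for Ccl2 best known for the exit of monocytes from bone marrow, had the largest rise with costimulation among the members. Its level was 8.86, 6.78, 6.01, 24.2 and 4.55 CPM in Ag, 76.0, 95.9, 84.7, 86.6 and 116 CPM in Ag+Costim, and 27.2 and 29.1 CPM in Naive. Ag+Costim libraries were all above Naive, and Ag libraries were all below, with Ag 4 far above the other Ag libraries. Ccr2 was 3.21 ± 0.39 (log2, SE) higher in Ag+Costim than in Ag (edgeR, adjusted p = 1.2e-05), and 3.81 without Ag 4. It was 1.70 ± 0.51 higher in Ag+Costim than in Naive (adjusted p = 0.013) and fell by 1.51 from Naive to Ag (SE 0.45, adjusted p = 0.014). Both calls against Naive were lost when either Naive library was left out: the adjusted p was then 0.101 or 0.089 for Ag+Costim and 0.065 or 0.090 for Ag. Myeloid cells, which the sort was also meant to leave out, express Ccr2, and their part in its level was not tested. The summed myeloid markers of the antigen groups overlapped, with medians of 139 CPM in Ag and 104 CPM in Ag+Costim. Of the 100-base windows of annotated Ccr2 transcripts, 0.79% also occur in transcripts of another gene, and no other member shared such a window with another gene.

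Cx3cr1, the fractalkine receptor, marks CD8+ T cells with effector features, and per length was the least abundant member in the antigen groups. Its annotated span (chr9:119901616-120069879, minus strand) crosses 9 other genes, and its exons overlap those of the antisense gene Gm33858. It was at 7.20 and 8.69 CPM in Naive, 0.373, 0.179, 1.03, 1.66 and 0.649 CPM in Ag, and 2.04, 1.31, 1.33, 7.54 and 5.95 CPM in Ag+Costim. The lowest Ag library had 8 counts. Ag was below Naive in every library, and Ag+Costim overlapped both groups. Cx3cr1 fell by 3.39 on the log2 scale from Naive to Ag (SE 0.72, edgeR adjusted p = 0.0018) and was 2.26 ± 0.62 higher in Ag+Costim than in Ag (adjusted p = 0.0072). Without Ag+Costim 4 and 5 that value was 1.06 (adjusted p = 0.12). Against Naive, Ag+Costim was at -1.13 ± 0.71 (adjusted p = 0.20), and at -2.33 without libraries 4 and 5 (adjusted p = 0.0095). Libraries 4 and 5 were the highest of their group in Cx3cr1 and were left out after the data were seen, so lower Ag+Costim values were bound to follow.

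Cxcr6 (chr9:123806475-123811760, plus strand), the receptor for Cxcl16 found on T cells that settle in tissues, varied least between groups. Its level was 162 and 159 CPM in Naive, 240, 223, 223, 142 and 153 CPM in Ag, and 133, 131, 170, 172 and 165 CPM in Ag+Costim. All 3 groups overlapped. The edgeR value was 0.29 ± 0.20 (log2, SE) in Ag against Naive (adjusted p = 0.26), -0.06 ± 0.20 in Ag+Costim against Naive (adjusted p = 0.81) and -0.35 ± 0.15 in Ag+Costim against Ag (adjusted p = 0.064). The last was called lower by DESeq2 (adjusted p = 0.039), by upper-quartile scaling (adjusted p = 0.0070) and without Ag 4 (adjusted p = 0.013) or Ag 5 (adjusted p = 0.027). In the libraries with Y-linked transcripts the mean CPM was 232 in Ag and 132 in Ag+Costim, and in those with Xist it was 173 and 169.

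**Figure D4:**
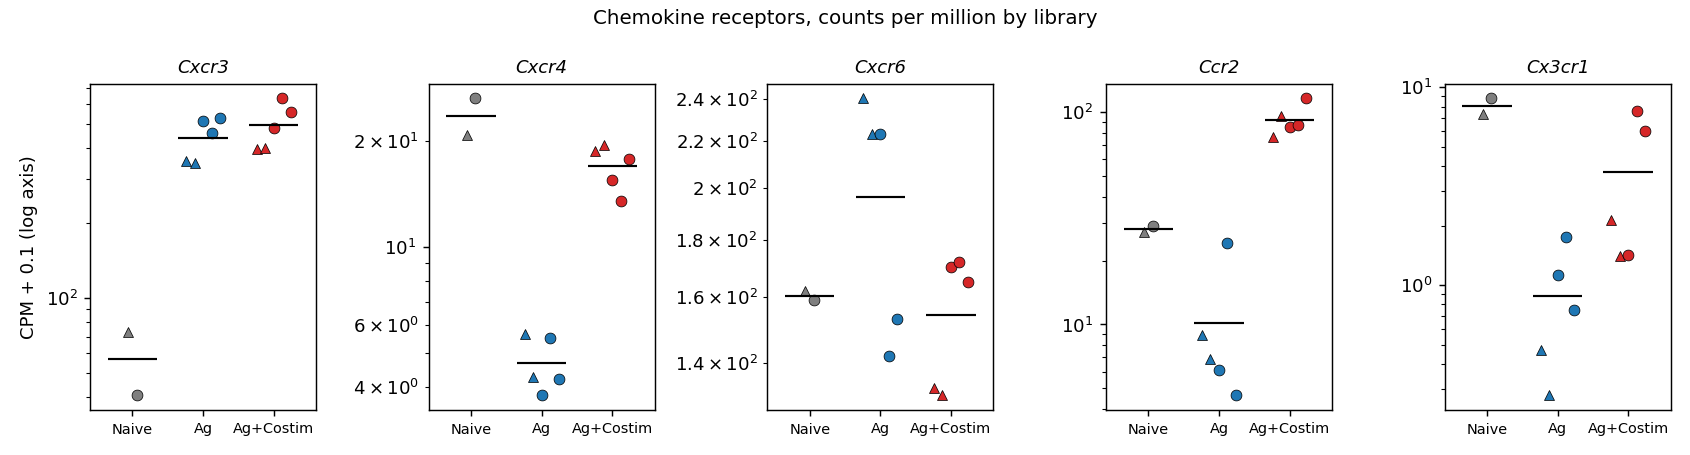
Level of the receptor genes in every library (CPM with 0.1 added, log axis, bars at group means), with triangles for libraries in which Y-linked transcripts exceeded Xist. Ag lies below Naive and Ag+Costim for Cxcr4 and Ccr2, with Ag 4 at 24.2 CPM in Ccr2, and the antigen groups overlap in Cxcr3, Cxcr6 and Cx3cr1.

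Per transcript length, in the deposited FPKM (fragments scaled to transcript length and library size), the order of the members changed with each condition. In Naive cells Ccl5 led with a mean of 256 FPKM, followed by Cxcr6 at 93.5, Cxcr3 at 36.2, Cxcr4 at 15.0, Ccr2 at 7.48, Xcl1 at 5.39, Ccl4 at 2.79, Cx3cr1 at 2.33 and Ccl3 at 0.376 FPKM (n = 2), and only Ccl4 and Cx3cr1 had overlapping neighbours in that order. In Ag cells Xcl1 (286 ± 59.2 FPKM, SD, n = 5) and Cxcr3 (250 ± 44.9) led with overlapping ranges. Cxcr6 (78.1 to 124 FPKM), Ccl4 (83.3 ± 17.0) and Ccl5 (78.1 ± 32.7) followed and also overlapped, then Ccl3 (18.9 ± 5.17) stood alone. Cxcr4 (2.56 ± 0.51) and Ccr2 (2.50 ± 2.07) overlapped, and Cx3cr1 (0.186 ± 0.155) was last. With costimulation, Cxcr3 led at 272 ± 55.6 FPKM (SD, n = 5). Ccl5 (96.1 ± 93.0), Cxcr6 (77.4 ± 9.79) and Xcl1 (69.8 ± 49.6) overlapped one another, Ccl5 also overlapped Cxcr3, and Ccr2 (22.5 ± 4.54) came next, overlapping Xcl1 and Ccl5. Ccl4 (11.8 ± 4.17), Cxcr4 (9.20 ± 1.34) and Ccl3 (7.53 ± 2.20) overlapped, and Cx3cr1 (0.891 ± 0.742) was again last. Xcl1 thus stood at rank 398 of 25049 genes with an FPKM above 0 in Ag, 1761 of 24899 in Ag+Costim and 8885 of 23446 in Naive.

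Within groups, the members did not vary as a block. Over the 12 libraries, deviations of log2 CPM from the group mean correlated at 0.88 between Ccl5 and Cx3cr1 and at -0.81 between Ccl5 and Xcl1. These are Pearson's r, given as a description, since all values of a library share its RNA and depth. For Ccl3 and Ccl4 r was 0.19, which includes the Naive pair, where Ccl3 had 26 and 0 counts and Ccl4 had 70 and 91. In the antigen groups these genes varied together, their log2 ratio having an SD of 0.18 in Ag and 0.20 in Ag+Costim. Of 9246 genes searched, the one most like Ccl3 by this measure was Lag3, an inhibitory receptor of activated T cells (r = 0.97), followed by Ptger2 (0.94) and Neu3 (0.91). The values for Ccl3 also include the Naive pair with 26 and 0 counts. For Ccl4 it was Dusp6, a phosphatase that acts on ERK (0.98), followed by 2610035D17Rik (0.92) and BC029722 (0.90). The closest genes were Fdx1, Nrn1 and Mrfap1 for Xcl1 (0.94, 0.92 and 0.91), Abcg3, Gm5547 and Atp6v0d1 for Ccl5 (0.96, 0.96 and 0.95), and Pld4, Cdk5rap1 and Ifngas1 for Cxcr3 (0.92, 0.91 and 0.89). Ncor1 and Sfmbt1 were among the closest to Cxcr4 (0.92 and 0.91), and the closest were, for Cxcr6 Gm15590, Tusc3 and Sucla2 (0.98, 0.92 and 0.92), and for Ccr2 H2-Q10, Rrbp1 and Rbm27 (0.98, 0.95 and 0.95). Each value is the highest of 9246, so a high r was bound to be found.

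For the 4 members with several annotated transcripts and enough counts, no change in the share of the leading transcript was detectable between the antigen groups. Ccl5-201 held 98.6% ± 0.69 of Ccl5 transcript counts in Ag and 97.9% ± 0.75 in Ag+Costim (SD, n = 5, exact permutation test, two-sided p = 0.14, adjusted p = 0.29 over 4 genes). Cxcr6-201 held 97.2% ± 2.65 and 93.0% ± 1.88 (SD, n = 5, exact permutation p = 0.032, adjusted p = 0.13). Cxcr4-201 held 97.5% ± 4.51 and 96.9% ± 2.97 (SD, n = 5), and Ccr2-203 held 38.1% to 69.6% in Ag and 51.8% to 78.4% in Ag+Costim (range, n = 5, exact permutation, adjusted p = 0.83 for both).

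The Whippet table, which gives the pooled fraction of transcripts that include a node (Psi) for Ag and Ag+Costim, listed 12 nodes in 5 members, 8 of them in Ccr2. A single node passed a probability above 0.9 with a Psi difference above 0.05, beside 1.96% of the 115403 nodes in the table. It was the alternative start of Ccr2 at chr9:124101950-124102157, inside the promoter window printed above. Its Psi was 0.137 in Ag and 0.0188 in Ag+Costim, with a probability of 0.902. In the transcript counts, Ccr2-204, which begins at this position, held 12.2% to 20.5% of Ccr2 in Ag and 14.0% to 28.6% in Ag+Costim, so the measures of this start did not fall together. The pooled Psi values have no replicate error, and Ccr2 had 189 to 611 counts per library in Ag.

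Beyond the members, 16 of 18 other chemokine receptors passed the filter on low counts. From Ag to Ag+Costim 5 of the 16 fell, beside 26.5% of all genes called lower. Ccr10, a receptor of skin-homing cells, went from 17.9 ± 8.30 CPM in Ag to 0.854 ± 0.431 in Ag+Costim (SD, n = 5) and fell by 4.38 on the log2 scale (edgeR, adjusted p = 4.8e-06). Ccrl2, an atypical receptor, fell by 1.60 (adjusted p = 8.2e-05), and Cxcr5, the B cell follicle receptor, fell by 1.55 (adjusted p = 0.00017) from 44.1 ± 17.3 to 15.1 ± 5.21 CPM (SD, n = 5). All 3 had been higher in Ag than in Naive, by 5.15, 2.93 and 1.75 on the log2 scale (edgeR, adjusted p of 0.0001, 3.3e-05 and 0.0014). The summed B cell markers were also higher in Ag, although the sort was meant to leave out B cells, and their part in Cxcr5 was not tested. The other falls were in Ccr7 and in Ackr1, which had at most 0.475 CPM, both named after their values were seen.

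Ccr9 and Ccr7, receptors of gut-homing and lymph node-homing cells, were highest in Naive. Ccr9 fell from 194 ± 20.3 CPM (SD, n = 2) to 0.676 ± 0.322 in Ag and 0.890 ± 0.309 in Ag+Costim (SD, n = 5), so that it fell by 8.15 on the log2 scale in Ag (edgeR, adjusted p = 1.4e-08) and fell by 7.77 in Ag+Costim (adjusted p = 5.9e-09). Ccr7 was at 1140 ± 76.0 CPM in Naive (SD, n = 2), 666 ± 141 in Ag and 231 ± 65.8 in Ag+Costim (SD, n = 5). It fell by 0.77 from Naive to Ag (edgeR, adjusted p = 0.017), by 1.53 from Ag to Ag+Costim (adjusted p = 1.5e-05) and by 2.30 from Naive to Ag+Costim (adjusted p = 2.8e-06). The first of these was lost when either Naive library was left out (adjusted p = 0.056 or 0.12). For Ccr9 the value between the antigen groups was 0.38 ± 0.33 (adjusted p = 0.36). The counts were 4 of 16 receptors higher and 2 lower for Ag against Naive, beside 24.2% and 22.5% of all genes. For Ag+Costim against Naive they were 3 higher and 2 lower, beside 26.9% and 25.4% of all genes. Xcr1, the receptor for Xcl1, was 1.47 ± 0.35 (log2, SE) higher in Ag+Costim than in Naive (edgeR, adjusted p = 0.0030; 0.053 without Naive 1), at 3.21 ± 0.739 CPM (SD, n = 5).

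**Figure D5:**
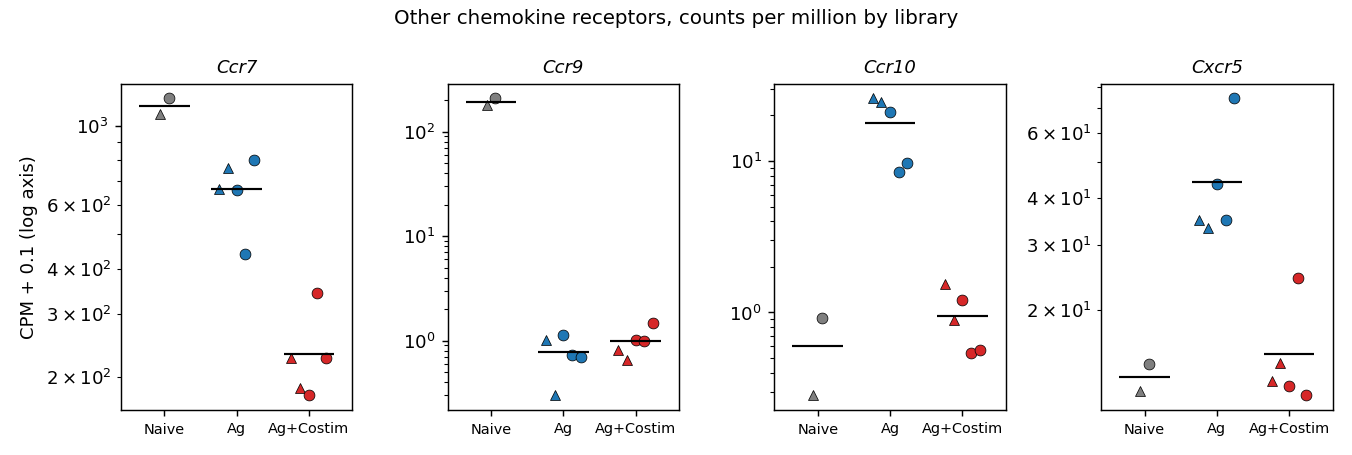
Level of 4 receptors outside the member list in every library (CPM with 0.1 added, log axis, bars at group means), with triangles for libraries in which Y-linked transcripts exceeded Xist. Ccr10 and Cxcr5 are high in Ag, Ccr9 is high in Naive, and Ccr7 falls from Naive to Ag to Ag+Costim.

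Of 34 other ligand genes, 5 had no count in any library and 15 passed the filter. Of the 15, 3 rose and 2 fell from Ag to Ag+Costim, with a median log2 fold change of -0.22 beside -0.05 for all genes. Among all genes, 26.6% were called higher and 26.5% lower. Cxcl10, a ligand of Cxcr3, was at 1.18, 1.07, 1.16, 2.93 and 1.13 CPM in Ag and 7.35, 10.2, 8.17, 3.51 and 4.49 CPM in Ag+Costim. The groups did not overlap, and Cxcl10 rose by 2.19 ± 0.36 (log2, SE, edgeR adjusted p = 0.00015). The falls were Pf4 and Ppbp, which platelets store, named after their values were seen. Pf4 was at 0.385 to 5.62 CPM in Ag and at most 0.222 CPM in Ag+Costim, and its highest libraries, Ag 2 and Ag 4, also had the most haemoglobin transcripts; the part of such cells in these values was not tested. Against Naive, 8 of the 15 ligands were higher in Ag, 5 of the 8 with both Naive libraries at 0, and 6 were higher in Ag+Costim. The shares of all genes called higher were 24.2% in Ag and 26.9% in Ag+Costim. Among those with a mean log2 CPM above 1, Ccl27a was at 0.92 ± 0.27 (log2, SE) in Ag (edgeR, adjusted p = 0.013) and 0.77 ± 0.27 in Ag+Costim (adjusted p = 0.027), calls that were lost without Naive 2 (adjusted p = 0.15 and 0.23).

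Of 24 genes that carry or limit chemokine receptor signals, all 24 were tested, and 10 rose and 9 fell from Ag to Ag+Costim, with a median log2 fold change of -0.16. Among all genes, 26.6% were called higher and 26.5% lower in this comparison. The rises were led by Pik3cg and Pik3r5, the catalytic and regulatory subunits of the phosphoinositide 3-kinase that G protein-coupled receptors activate. Pik3cg rose from 23.1 ± 3.95 to 82.0 ± 7.78 CPM (SD, n = 5) and by 1.83 on the log2 scale (edgeR, adjusted p = 9.3e-08), and Pik3r5 rose from 62.8 ± 10.9 to 185 ± 27.8 CPM and by 1.56 (adjusted p = 5.2e-07). Gnb2, a G protein beta subunit, rose by 1.55 (edgeR, adjusted p = 2.1e-08). Rgs10, a regulator of G protein signalling, fell by 2.64 (edgeR, adjusted p = 1.1e-06), from 85.8 ± 15.6 to 13.8 ± 5.80 CPM (SD, n = 5). Arrb1, a beta-arrestin, fell by 1.98 (adjusted p = 1.8e-05) and Rgs2 by 1.12 (adjusted p = 0.0031). The other beta-arrestin of the list, Arrb2, rose by 0.92 (edgeR, adjusted p = 1.1e-06), with 110 to 144 CPM in Ag and 223 to 275 CPM in Ag+Costim, and Rgs16 rose by 1.41 (adjusted p = 0.012), both named after their values were seen.

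Against Naive, 8 of the 24 signalling genes were higher and 7 lower in Ag, and 9 were higher and 7 lower in Ag+Costim. The shares of all genes were 24.2% higher and 22.5% lower in Ag, and 26.9% and 25.4% in Ag+Costim. Rgs1 and Rgs16, regulators of G protein signalling, were among the highest in both: Rgs1 rose by 3.01 in Ag and 2.79 in Ag+Costim, and Rgs16 by 3.4 and 4.81 on the log2 scale (edgeR, adjusted p from 2.5e-06 to 0.0017). With limma on log2(FPKM + 1), Rgs16 was at 0.80 in Ag (adjusted p = 0.057). Gng2 rose by 1.69 and 1.60. Pik3r5, Ptk2b and Dock2 had the largest falls in Ag, at -1.75, -1.47 and -1.17 on the log2 scale, and Arrb1, Rgs10 and Rgs2 had them in Ag+Costim, at -2.92, -2.75 and -1.46. Dock2 was at -0.62 with length offsets.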

How the data were processed

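RNA was measured by poly(A) RNA-seq (SMART-Seq v4 with Nextera XT, reads of 100 bases) in 12 libraries grouped by GEO's treatment labels. The authors aligned reads to mm10 and quantified them; their processing notes name HISAT2 2.1.0, SAMtools 1.9, StringTie 2.1.0, R 4.0.5 and DESeq2 1.30.1. The deposited gene and transcript counts are unnormalised. They sum to 24006053 to 49294934 per library and exceed the reads of the lane sheet in 9 of 12 libraries, so a count is not a read. The authors' FPKM values are scaled to transcript length and library size. The deposited Whippet table gives Psi as a fraction per pooled group, with difference, probability and entropy as a score. The deposited lane sheet gives total reads as counts, and aligned reads and complexity as percent. GENCODE vM21 supplied names and positions, and 26345 of 81881 entries with no annotated gene ID were left out (0.0508% to 0.121% of counts).

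Counts were tested with edgeR 4.0.16 (R 4.3.3; TMM, filterByExpr, quasi-likelihood F test over all 3 groups), with adjusted p over 18817 genes; SE is the fold change divided by the root of F. CPM uses TMM sizes. Alternatives used RLE and upper-quartile scaling, DESeq2 1.42.0, no filter, limma 3.58.1 on log2(FPKM + 1) and log2(FPKM + 0.1), only the groups compared, a replicate block, a term for Y-linked transcripts, length offsets and each library left out. Ligand ratios and transcript shares (at least 20 counts in every Ag and Ag+Costim library) used exact permutation tests in scipy. On simulated counts in which 200 of 18817 genes were shifted by 1 on the log2 scale, 48.5% were recovered for Ag+Costim against Ag, 31% for Ag against Naive and 34% for Ag+Costim against Naive. Far more genes were called in the data (24.2% higher and 22.5% lower in Ag against Naive), which makes the adjusted threshold easier to pass. The simulated shares therefore do not measure how many changes the real comparisons missed. In the simulation, recovery was lower in both comparisons with the 2 Naive libraries, and moderate changes against Naive may have been missed. Libraries of a group differed by more than sampling noise, so none was a duplicate.

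The members and gene lists were chosen with earlier results of these data known. Named genes were all members; from each other list, at most the 3 largest rises and falls that passed the test, where mean log2 CPM exceeded 1; the 3 genes most like each member (mean log2 CPM above 3); and Whippet nodes past both thresholds. Some genes that this rule picks are not reported here. The cell-type lists served as measured checks only. Helper T cell, T cell, B cell, NK, myeloid, erythroid, Y-linked and Xist levels are given in the results. SMART-Seq reads carry no molecular identifiers, so limits cover counting error only. No value of the authors' own comparisons was used beyond the Whippet columns named.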

Additional observations from a re-analysis of the deposited data

Results flagged for a closer look

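Ccr2 in Ag 4 was at 24.2 CPM, while the other four Ag libraries were at 4.55 to 8.86 CPM, so that this library lay farther from its neighbour than Dixon's 95% limit for 5 samples allows (gap over range 0.78, limit 0.71). It was the only one of 18 groups of member values to do so, and chance alone gives about 1 in 20. Ag 4 had 24006053 counts, the fewest of the 12 libraries, and the highest summed erythroid level, 6370 CPM; their part in the Ccr2 value was not tested. Without Ag 4, Ccr2 was 3.81 higher on the log2 scale in Ag+Costim than in Ag and fell by 2.1 from Naive to Ag.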

How the results depend on the processing

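Each member's fold change was recomputed under 23 other settings, giving 621 values over the 3 comparisons, of which 577 kept direction and side of the threshold, 31 passed it where the main value did not, 5 no longer passed it and 8 changed sign. The changes of sign were in values that did not pass the main test: Ccl5 in Ag+Costim against Ag (-0.11 and -0.12 with limma on FPKM, -0.08 with a replicate block, -0.34 without Ag+Costim replicate 4 and up to 0.59 with the other libraries left out, -1.06 without Ag+Costim 4 and 5), Cxcr3 in the same comparison (-0.03 with upper-quartile scaling and -0.03 without Ag+Costim 4 and 5) and Cxcr6 in Ag+Costim against Naive (0.09 with length offsets). The number of members called ranged from 6 to 7 for Ag+Costim against Ag, from 6 to 8 for Ag against Naive and from 4 to 8 for Ag+Costim against Naive, where limma on log2(FPKM + 1) called 8 against 5 in the main fit (5 higher and 3 lower). That limma fit called 3987 of 18777 genes higher and 6718 lower. In the main fit the shares of all genes were 26.6% higher and 26.5% lower, 24.2% and 22.5%, and 26.9% and 25.4%, in the order of the comparisons above. Upper-quartile scaling moved the median of all genes in Ag+Costim against Ag from -0.05 to -0.25 on the log2 scale, and its calls to 4056 higher and 6338 lower; all 6 members called in that comparison kept their direction.

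The ratio of Ccl4 to Ccl3 was -1.60 to -1.47 and that of Ccl5 to Ccl4 2.32 to 3.21 with each library left out, where most fits could not pass the threshold because 4 against 5 libraries allow few arrangements. Both missed it with the pairing of same-numbered libraries (replicate block, -1.54 and 2.76, adjusted p = 0.094), where the smallest p is 0.0625. Both also missed it without Ag+Costim 4 and 5 (-1.41, adjusted p = 0.107, and 1.63, adjusted p = 0.14), where few arrangements are left as well. Transcript shares that did not pass the test ranged, with each library left out, from -2.57 to 0.407 percentage points for Cxcr4 and from -4.46 to 3.91 for Ccr2. Same-numbered Ag and Ag+Costim libraries also matched in whether Y-linked transcripts or Xist were higher. Their deviations correlated weakly, at 0.016 to 0.095, and those of other Ag and Ag+Costim pairs at -0.082 to 0.075. With the replicate block 6, 8 and 7 members were called in Ag+Costim against Ag, Ag against Naive and Ag+Costim against Naive. Of 18817 genes, the same fit called 4993 higher and 4743 lower, 4140 and 3775, and 4799 and 4279, in the same order. The 31 gained calls were Ccl5 in Ag against Naive under 5 settings (adjusted p of 0.00089 to 0.039) and in Ag+Costim against Naive under 5 (0.00027 to 0.042), Cxcr4 in Ag+Costim against Naive under 10 (0.0074 to 0.048, among them without Ag 1, Ag 3, Ag 4 or Ag+Costim 2), Cx3cr1 in Ag+Costim against Naive under 5 (0.0047 to 0.049) and Cxcr6 in Ag+Costim against Ag under 6 (0.0070 to 0.042). The replicate block gave 3 of them, Ccl5 at -2.60 in Ag and -2.68 in Ag+Costim and Cx3cr1 at -2.46 in Ag+Costim, all against Naive; leaving out Ag+Costim 4 alone gave Ccl5 adjusted p of 0.039 and 0.019. The 5 lost calls were Cx3cr1 without Ag+Costim 4 and 5, and Ccr2 against Naive without either Naive library, as given with these genes. The settings without Ag+Costim 4 and 5 were chosen after seeing the data. With 8 to 44 counts of Cx3cr1 per Ag library and 2 Naive libraries, small differences in these were not detectable.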
